A study of Homo sapiens with 4 samples.

Results

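A set of 10 protein-coding genes, known from mesenchymal cell lines and noticed for their bright input values, was followed through an experiment that asked how much of each transcript carries N1-methyladenosine (m1A). They were picked by symbol from a gene table of 6434 genes, and all 10 were found in it: VIM, LGALS1, CAV1, CAV2, ANXA1, ANXA3, CD44, TGFBI, TIMP3 and HOXC6. The depleted RNA was the supernatant left after an m1A antibody had been used to deplete poly(A)-selected messenger RNA (2 columns, supernatant A and supernatant B), and it was set against the same kind of RNA before depletion (2 columns, input A and input B). The sample labels give HepG2 cells in DMEM medium for both groups, an established line grown from a human liver tumour. No drug or genetic change is named in the labels, and the RNA was left intact. The labels do not say whether the 2 samples of a group came from separate cultures, so the spread may be technical. The table gives no cell line, so its columns are taken as HepG2 from the sample labels only. Its letters were not matched to the replicate numbers of the samples.

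m1A is a methylated form of adenosine whose methyl group blocks normal base pairing. A transcript that carries it on many copies should be scarcer, relative to other transcripts, after the antibody step. The genes studied here belong to different parts of an adherent, motile cell: vimentin fills the cytoplasm with intermediate filaments, caveolins shape pits in the plasma membrane, annexins bind membranes in the presence of calcium, CD44 is a receptor for hyaluronan, and TGFBI and TIMP3 are secreted into the matrix.

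The levels that led to the choice of these genes are described first and carry no test. Their supernatant/input ratios were also known by then, so counts over the 10 are a description. Array brightness depends on the probes as well as on the RNA, so a higher rank does not show a more abundant transcript. By mean input intensity, the 10 genes stood between percentile 52.2 (TGFBI) and percentile 99.3 (VIM) of all 6434 genes. All 10 lay above the middle of the whole table, but among the 5210 genes of the block headed as having 1 m1A peak, called one-peak genes here, TGFBI stood at percentile 45.0, so it was not bright among them. All 10 were one-peak genes, a block that holds 80.98% of the table.

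The name mesenchymal was only in part borne out by other markers. Of 26 further mesenchymal markers, 4 were listed, with the calcium-binding protein gene S100A4 at percentile 99.8, N-cadherin (CDH2) and endoglin (ENG) at percentiles 47.3 and 46.8, and the collagen gene COL1A1 at percentile 13.7. Of 12 transcription factors of the epithelial-mesenchymal transition, SNAI2 was listed at percentile 82.1 and TWIST1 at percentile 62.8. Some epithelial markers were bright as well, with 7 of 24 listed. The keratin genes KRT18 and KRT8, the surface protein gene CD24 and the plakoglobin gene JUP stood between percentiles 88.8 and 98.9. DSG2 stood at percentile 60.8. CRB3 and ST14 were dim, both below COL1A1, with ST14 at percentile 2.60. Of 45 hepatocyte and HepG2 markers, 5 were listed, from percentile 2.47 to 34.9, with FOXA1 the highest, and none of ALB, AFP, APOA1, TTR and HNF4A was among them. The table holds only genes with 1 m1A peak or none, so a gene that is not listed may still be expressed. Of 12 leukocyte markers only CD68 was listed, at percentile 8.42, and of 9 endothelial markers none.

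**Figure D1:**
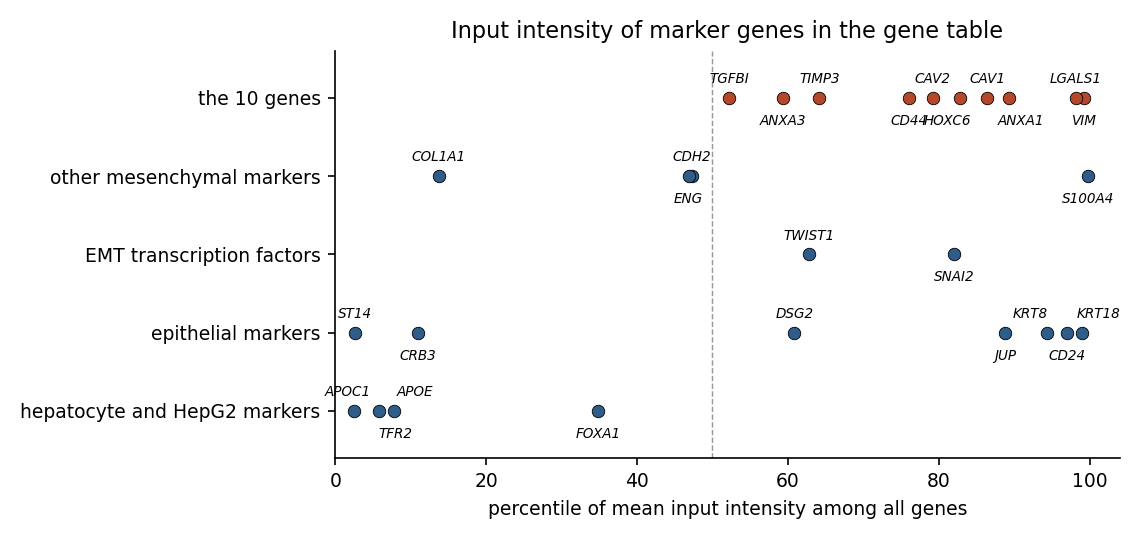
Percentile of mean input intensity among all 6434 genes (horizontal axis, in percent) for the 10 genes, and for members of 4 marker lists. Each point is a gene and the dashed line marks percentile 50. The 10 genes lie at or above percentile 52.2, KRT18, CD24 and KRT8 lie among the brightest, and the hepatocyte markers shown lie at or below percentile 34.9.

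None of the 10 genes passed the test between supernatant and input. The test was limma on log2 of the deposited intensities, fitted on all 6434 genes with Benjamini-Hochberg adjustment, and every one of the 10 had an adjusted p of 1.00. By an adjusted p under 0.05, 0 of the 10 passed, against 0.0155% of all genes. By an unadjusted p under 0.05 it was also 0 of the 10, against 2.02% of all genes (1.40% on the higher and 0.622% on the lower side). Log2 changes ranged from -0.06 in LGALS1 to 0.20 in ANXA3, with a median of 0.08. The median was 0.04 over all genes and 0.04 over the one-peak genes. The 2 groups did not overlap in 3 of the 10 genes, against 23.0% of all genes. In these 3, ANXA3, TIMP3 and ANXA1, both supernatant values lay above both input values, as in 16.6% of all genes. In 0 of the 10 did both lie below, against 6.37% of all genes. With 2 columns a group, the smallest two-sided p of an exact permutation test is 0.333.

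**Figure D2:**
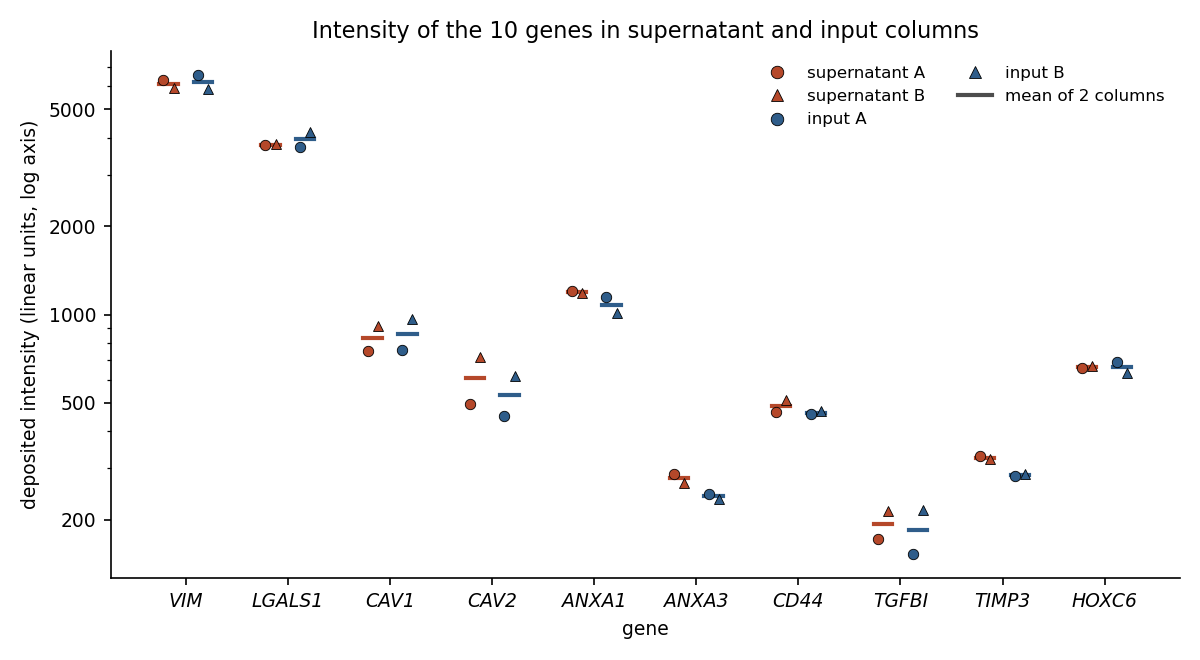
Deposited intensity (vertical log axis, linear units) of each gene in supernatant A and B and in input A and B. Circles are columns A, triangles are columns B and bars are means of 2 columns. ANXA3, TIMP3 and ANXA1 have both supernatant values above both input values, and the triangles lie farthest above the circles in CAV2, TGFBI and CAV1.

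Vimentin and galectin-1, the highest of the 10 by input percentile, had supernatant values close to their input values. VIM, which encodes the main intermediate filament protein of mesenchymal cells, had intensities of 6284 and 5928 in supernatants A and B, against 6569 and 5851 in inputs A and B. The 2 groups overlapped, with input A the highest and input B the lowest of the 4 values. The log2 change was -0.02 ± 0.11 (SE), which is a change of -1.55% with a 95% interval from -18.9% to 19.5%. LGALS1, which encodes galectin-1, a lectin that binds beta-galactosides, had 3779 and 3813 in supernatants A and B, against 3724 and 4190 in inputs A and B. Here the inputs lay on either side of the supernatants. Its log2 change was -0.06 ± 0.10 (SE), or -3.91% with a 95% interval from -20.3% to 15.9%. The log2 ratio of LGALS1 was 0.02 between columns A and -0.14 between columns B. For VIM the signs were the other way round, at -0.06 and 0.02.

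The galectins and filament genes related to these 2 were described from lists. LGALS3 and LGALS3BP, which encode galectin-3 and a protein it binds, had log2 changes of 0.03 ± 0.09 and 0.15 ± 0.20 (SE). They were the only other measured genes of 11 in the galectin list and neither passed. Of 5 measured intermediate filament and lamin genes besides VIM, none passed. KRT18 and KRT8 were at 0.01 ± 0.19 and 0.06 ± 0.13, and LMNB1, a gene of the nuclear lamina, at -0.22 ± 0.13 (SE).

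The 2 caveolins differed more between columns A and B than between supernatant and input. CAV1 encodes the main structural protein of caveolae and CAV2 a partner that assembles with it. CAV1 had intensities of 753 and 913 in supernatants A and B, against 757 and 967 in inputs A and B. Both columns B lay above both columns A, so the groups overlapped. The log2 change was -0.05 ± 0.17 (SE), or -3.14% with a 95% interval from -29.4% to 32.9%. CAV2 had 497 and 715 in supernatants A and B, against 450 and 617 in inputs A and B. It too was higher in both columns B, and it was higher in the supernatant within each lettered pair, at log2 ratios of 0.15 for columns A and 0.21 for columns B. The unpaired log2 change was 0.18 ± 0.25 (SE), or 13.2% with a 95% interval from -28.0% to 78.1%. The intervals of CAV2, TGFBI and CAV1 were the widest of the 10 in this unpaired fit. With the letter as a replicate block, the SEs of these genes were 0.0698, 0.0805 and 0.0702. The other SEs then ran from 0.0684 in ANXA3 to 0.0791 in ANXA1.

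Of 15 caveola genes, 3 were measured besides CAV1 and CAV2, and none passed. FLOT1, of the flotillin membrane scaffold, was at 0.02 ± 0.13, the dynamin gene DNM2 at 0.01 ± 0.12 and EHD4, of a family that reshapes membranes, at -0.02 ± 0.21 (log2 change, SE). CAV1 and CAV2 are neighbours on chromosome 7 in the RefSeq annotation, with no protein-coding gene between them. Of the 10 genes, these 2 neighbours and TGFBI lay farthest above in columns B, and LGALS1 and CD44 were also higher there. Whether sequence has a part in this was not tested. The 250 bases before the first listed start of CAV1, CAV2 and TGFBI are shown. They come from RefSeq (build GRCh38.p14), read 5′ to 3′ on the plus strand, and capitals mark the GC box GGGCGG on either strand. They cover chr7:116524759-116525008 for CAV1, chr7:116499488-116499737 for CAV2 and chr5:136028738-136028987 for TGFBI.
CAV1: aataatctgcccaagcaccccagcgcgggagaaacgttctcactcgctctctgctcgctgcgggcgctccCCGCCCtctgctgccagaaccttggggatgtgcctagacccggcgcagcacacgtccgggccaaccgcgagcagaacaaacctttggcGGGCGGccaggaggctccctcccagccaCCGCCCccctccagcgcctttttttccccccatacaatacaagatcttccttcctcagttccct
CAV2: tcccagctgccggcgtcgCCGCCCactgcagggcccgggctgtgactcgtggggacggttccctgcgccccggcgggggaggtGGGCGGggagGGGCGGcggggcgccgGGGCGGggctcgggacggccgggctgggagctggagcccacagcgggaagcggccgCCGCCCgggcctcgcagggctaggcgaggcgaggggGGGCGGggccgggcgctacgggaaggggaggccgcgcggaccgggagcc
TGFBI: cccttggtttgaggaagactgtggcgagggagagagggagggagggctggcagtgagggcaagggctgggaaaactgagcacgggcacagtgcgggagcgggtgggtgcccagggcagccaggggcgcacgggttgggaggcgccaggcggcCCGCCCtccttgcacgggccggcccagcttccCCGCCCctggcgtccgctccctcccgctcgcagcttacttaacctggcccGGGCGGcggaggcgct
CAV2 holds 6 GC boxes in this window, CAV1 holds 3 and TGFBI holds 3. GC content is 83.2% in CAV2, 63.6% in CAV1 and 72.8% in TGFBI, against a median of 57.6% over 27305 promoters. Among the other members with a sequence, GC content is 72.4% in TIMP3, 64.0% in ANXA3, 62.4% in CD44, 46% in VIM and 38.4% in ANXA1. Their mean log2 differences, B minus A, were -0.01, -0.08, 0.09, -0.13 and -0.10 in that order. TIMP3 holds 5 GC boxes, CD44 holds 2, VIM holds 1, and ANXA3 and ANXA1 hold 0. Sequences were at hand for 8 of the 10 genes, and 6 of them hold a GC box (VIM, CAV1, CAV2, CD44, TGFBI and TIMP3), against 42.2% of all promoters. The TATA box TATAAA was found in ANXA1 alone of the 8 (11.2% of all promoters) and the CCAAT box, as CCAAT, in ANXA1 and TIMP3 (33.0%). The AP-1 site TGANTCA (6.57%) and the TEAD site GGAATG (12.0%) were found in 0 of the 8, on either strand. These 5 motifs were the ones searched, and a match describes letters, not binding.

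The 2 annexins had higher values in the supernatant in both pairs, without passing. ANXA1, which encodes a calcium-dependent phospholipid-binding protein known for anti-inflammatory signalling, had intensities of 1202 and 1188 in supernatants A and B, against 1148 and 1013 in inputs A and B. The groups did not overlap, with input A a little below the supernatants and input B clearly lower. The log2 change was 0.15 ± 0.10 (SE), or 10.9% with a 95% interval from -8.44% to 34.2%. ANXA3 encodes another annexin. It had 286 and 268 in supernatants A and B, against 245 and 236 in inputs A and B, and the groups did not overlap. Its log2 change of 0.20 ± 0.09 (SE) was the highest of the 10, or 15.1% with a 95% interval from -2.92% to 36.4%. The unadjusted p of ANXA3 in limma was 0.0856 and that of TIMP3, the lowest of the 10, was 0.0756.

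The other annexins were described from a list of 13, of which 6 were measured besides these 2 and none passed. ANXA2, a membrane and cytoskeleton linker, was at -0.03 ± 0.09, ANXA11 at 0.06 ± 0.15 and ANXA5, known for binding phosphatidylserine, at 0.06 ± 0.09 (log2 change, SE). The median of the 6 was 0.05. Of 8 measured S100 genes, several of which encode calcium-binding partners of annexins, none passed either. S100A4, S100P and S100A11 were at 0.03 ± 0.09, -0.01 ± 0.13 and 0.17 ± 0.11 (SE), and S100A2 had an unadjusted p under 0.05 on the lower side.

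CD44, the gene of the main hyaluronan receptor, had intensities of 464 and 511 in supernatants A and B, against 458 and 469 in inputs A and B. Supernatant B was the highest value and the other 3 lay close together. The log2 change was 0.07 ± 0.10 (SE), or 5.15% with a 95% interval from -12.1% to 25.8%. The genes of hyaluronan binding and breakdown that were measured did not pass either. The hyaluronan-binding motility receptor gene HMMR was at 0.07 ± 0.12, and the hyaluronidase genes HYAL1 and HYAL3 at 0.11 ± 0.11 and 0.09 ± 0.10 (log2 change, SE). They were the 3 measured, besides CD44, of a list of 15.

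The 2 secreted proteins behaved differently from each other between columns. TGFBI, a matrix protein that transforming growth factor beta induces, had intensities of 172 and 215 in supernatants A and B, against 153 and 216 in inputs A and B. The groups overlapped, and both columns B lay above both columns A. Its log2 change was 0.08 ± 0.21 (SE), or 5.68% with a 95% interval from -28.7% to 56.7%. TIMP3, an inhibitor of metalloproteinases that is bound to the matrix, had 329 and 322 in supernatants A and B, against 282 and 286 in inputs A and B. These groups did not overlap and each pair of columns lay close together. The log2 change was 0.20 ± 0.09 (SE), or 14.6% with a 95% interval from -2.10% to 34.1%. TIMP3 lies inside SYN3 in the RefSeq annotation, a gene not listed in the table.

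Of 8 measured metalloproteinases and related genes besides TIMP3, none passed. BSG, a surface inducer of metalloproteinases, was at 0.16 ± 0.10, the membrane protease gene ADAM9 at 0.03 ± 0.12 and TIMP2, another inhibitor, at -0.01 ± 0.21 (log2 change, SE). Of 7 measured ligands, receptors and mediators of transforming growth factor beta, none passed, with SMAD3 at 0.06 ± 0.16, SMAD4 at 0.02 ± 0.16 and the receptor gene TGFBR1 at 0.05 ± 0.09. Among 3 measured responsive genes, CYR61 and CTGF were at -0.02 ± 0.27 and -0.02 ± 0.29 and COL1A1 at 0.35 ± 0.09 (SE), with an unadjusted p of 0.0154 and an adjusted p of 1.00 in limma.

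HOXC6, a homeobox transcription factor gene that marks position along the body axis, had intensities of 657 and 668 in supernatants A and B, against 687 and 634 in inputs A and B. The supernatants lay between the inputs. The log2 change was 0.01 ± 0.09 (SE), or 0.381% with a 95% interval from -15.5% to 19.2%, and its sign turned when the columns were centred or quantile normalized. HOXC6 overlaps HOXC4 and HOXC5 in the RefSeq annotation, and both are in the table, so probes may be shared. HOXC4 was at 0.05 ± 0.09, and HOXC5, named for this overlap after its values were seen, at 0.10 ± 0.10 (log2 change, SE). Of 15 measured HOX genes besides HOXC6, none passed, with HOXA10 at 0.13 ± 0.09 and HOXB7 at 0.03 ± 0.24. Among 4 measured cofactors of HOX proteins, none passed. PBX2 had 69.5 and 69.3 in the supernatants, against 96.4 and 107 in the inputs, with a log2 change of -0.55 ± 0.10 (SE), an unadjusted p of 0.00342 and an adjusted p of 1.00. MEIS3 and MEIS1 were at -0.06 ± 0.09 and 0.23 ± 0.15.

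Over all 17 lists, 78 related genes other than the 10 were measured. None passed. An unadjusted p under 0.05 in limma was seen for 2 on the higher side (COL1A1 and HOXC11) and 3 on the lower side (PBX2, S100A2 and CRB3), or 6.41% against 2.02% of all genes. HOXC11, S100A2 and CRB3 were named after their values were seen. The lists were chosen with earlier results of these data known, so the share is a description. The median log2 change of the 78 was 0.02.

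**Figure D3:**
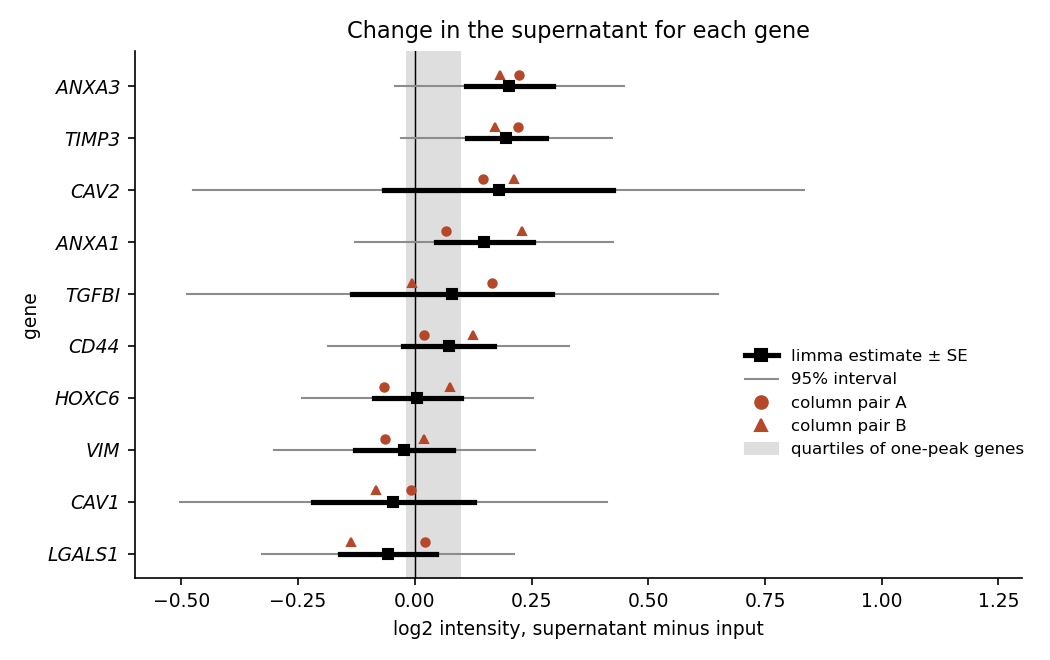
Log2 intensity in supernatant minus input (horizontal axis) for each gene (vertical axis). Squares with thick bars are limma estimates ± SE, thin lines are 95% intervals, circles and triangles are the ratios of pairs A and B, and the grey band spans the quartiles of the one-peak genes (-0.02 to 0.10). Every interval of this unpaired fit crosses 0, and those of CAV2, TGFBI and CAV1 are the widest.

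The signs of the lettered pairs were counted next. Both pairs were on the higher side in 5 genes (CAV2, ANXA1, ANXA3, CD44 and TIMP3), both on the lower side in 1 (CAV1), and the signs of the pairs differed in 4. Over all genes, 40.3% were higher in both pairs and 14.4% lower in both. The median log2 ratio of the 10 was 0.04 between columns A and 0.10 between columns B.

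The median change differed with brightness in the one-peak block, so each gene was also placed among genes of like level. The one-peak genes were divided into 10 equal bins of 521 by mean intensity. The median log2 change was 0.07 in the dimmest bin and 0.01 in the brightest. Within its own bin, ANXA1 stood at percentile 97.3, ANXA3 at 97.1, TIMP3 at 96.9 and CAV2 at 96.7 by log2 change. LGALS1 stood at percentile 11.1, CAV1 at 17.7 and VIM at 27.4, and the other 3 lay between 41.3 and 74.5. These ranks describe the genes, which were chosen with results known, and they rest on ratios with an SE of 0.09 to 0.25. The input values that drew attention to these genes are also the denominator of the ratio.

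**Figure D4:**
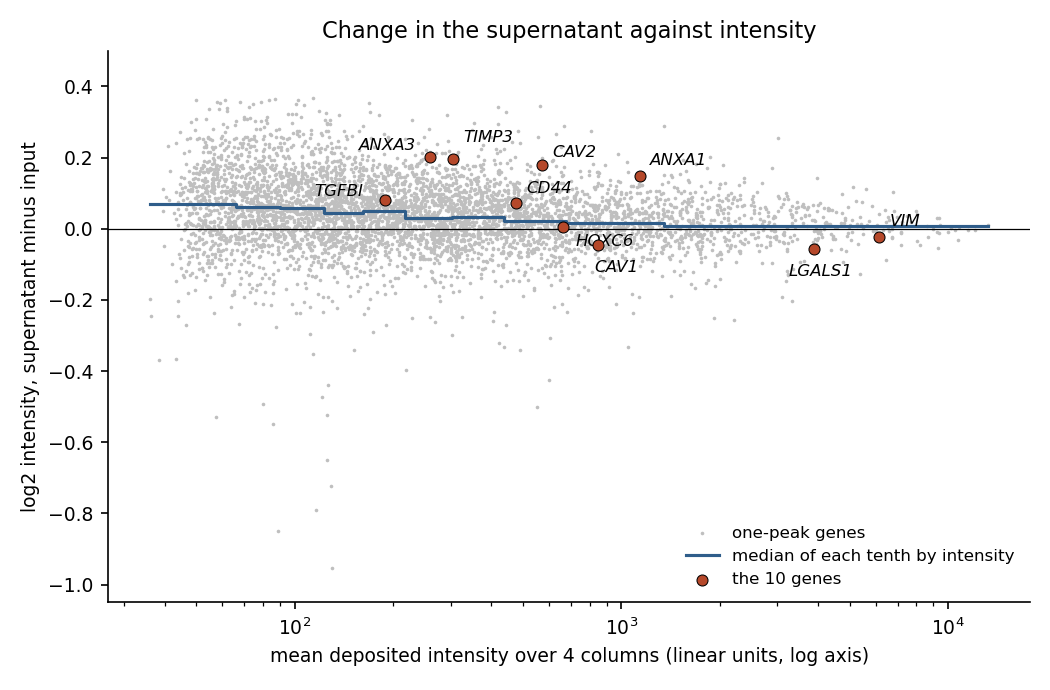
Log2 intensity in supernatant minus input (vertical axis) against mean intensity over 4 columns (log axis) for the one-peak genes in grey, with the 10 genes labelled and the median of each of 10 bins as a line. ANXA3, TIMP3, CAV2 and ANXA1 lie near the upper edge at their intensity, and VIM, LGALS1, CAV1 and HOXC6 lie below the line.

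In the authors' deposited table, the methylated fraction of the 10 genes ran from 0.11 in ANXA3 and TIMP3 to 0.26 in LGALS1. Also in the authors' deposited table, CAV1 stood at 0.25, VIM at 0.24, HOXC6 at 0.22, CD44 at 0.19, TGFBI at 0.18, ANXA1 at 0.14 and CAV2 at 0.12, and one-peak genes had a median of 0.21 with quartiles of 0.17 and 0.23. LGALS1 was exceeded by 8.29% of one-peak genes in the authors' deposited table, and ANXA3 and TIMP3 by 93.8%. By recomputation, the authors averaged the supernatant/input ratios of both pairs, divided this by 1.29 (the mean ratio of genes without an m1A peak) and took 1 minus the result. Recomputed without that divisor, the fraction was 0.04 in LGALS1, 0.03 in CAV1 and 0.02 in VIM, and below 0 in the other 7, down to -0.15 in ANXA3. Genes without a peak were called bright here if their mean intensity was at least that of the dimmest one-peak gene, 36.1. This low cutoff kept 694 of 1224 genes. With their mean ratio as divisor, at 1.05, the fraction was above 0 in LGALS1 (0.08), CAV1 (0.08), VIM (0.06) and HOXC6 (0.04). It was below 0 in the other 6.

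Both columns B lay above both columns A in 5 of the 10 genes, against 29.1% of all genes and 30.7% of one-peak genes. In 1 of the 10, VIM, both lay below, against 32.3% of all genes. The distance on the higher side was widest in CAV2, TGFBI and CAV1. In the other 2 genes higher in columns B, LGALS1 and CD44, the mean log2 difference, B minus A, was 0.09 each. CAV2 was 1.44 times as bright in supernatant B as in supernatant A and 1.37 times as bright in input B as in input A. For TGFBI these ratios were 1.25 and 1.41, and for CAV1 1.21 and 1.28. The mean log2 differences of CAV2, TGFBI and CAV1, at 0.49, 0.41 and 0.32, stood at percentiles 98.9, 97.9 and 95.3 of the one-peak genes. The other 7 genes lay between -0.13 in VIM and 0.09 in LGALS1. The difference in the supernatants and that in the inputs had a Spearman's rho of 0.696 across the 5210 one-peak genes, which are not independent replicates. With 1 column of each kind per letter, B against A was described and not tested, and fewer cells expressing a gene cannot be told apart from less of its RNA per cell.

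Related genes differed between the columns in either direction. Of the 78, 38 were higher in B than in A in both groups, 23 were lower in both and 17 were mixed, against 35.2% higher and 38.6% lower of all genes. Among the 57 that are one-peak genes, the 3 highest by mean log2 difference, picked after the values were seen, were CTGF at 0.58 and CYR61 at 0.53, both secreted matricellular proteins, and FOXA1 at 0.51. The 3 lowest were HOXB7 at -0.41, SMAD4 at -0.29 and SMURF2 at -0.28. Both measured factors of the epithelial-mesenchymal transition were lower in B, with SNAI2 at -0.16 and TWIST1 at -0.20. Of the 4 other mesenchymal markers, ENG (0.40), CDH2 (0.20) and S100A4 (0.06) were higher in B in both groups. COL1A1 (-0.04) was mixed. The 3 other caveola genes were higher in B in both groups, with EHD4 at 0.39, FLOT1 at 0.19 and DNM2 at 0.16. Markers of other cell types differed too, though not all in 1 direction. Of the 7 listed epithelial markers, 5 were higher in B in both groups, DSG2 was lower in both and CRB3 was mixed. Their summed intensity was 12284 in supernatant B and 12133 in input B, against 10450 in supernatant A and 9937 in input A. Without KRT18, the brightest, the sums of the other 6 were 6758 in supernatant B and 6440.1 in input B, against 6016 in supernatant A and 5666 in input A. Among the hepatocyte markers, FOXA1 was higher in B in both groups, and APOE, TFR2 and APOC1 were mixed. The sum of the 5 listed was 200.3 in supernatant B and 212.9 in input B, against 161.1 in supernatant A and 158.7 in input A, with none of ALB, AFP, APOA1, TTR and HNF4A among them. Without FOXA1, the other 4 were all dim, at or below percentile 7.76 by input. Their sum was 82.0 in supernatant B and 84.5 in input B, against 72.4 in supernatant A and 73.8 in input A. The part of these cell type markers in the difference was not tested.

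**Figure D5:**
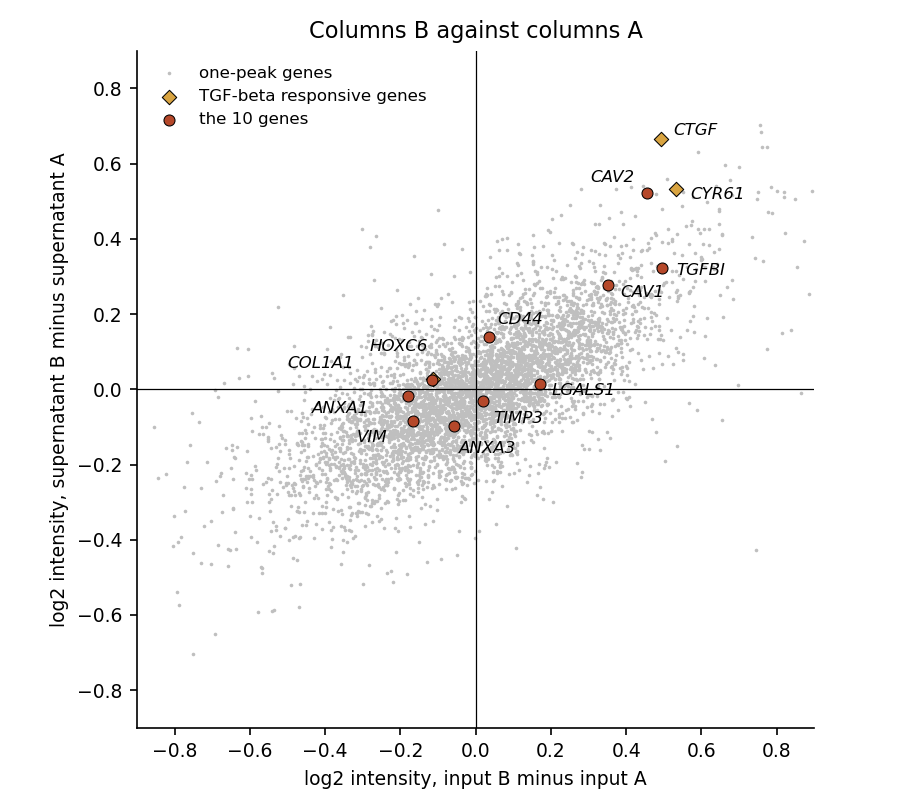
Log2 intensity of supernatant B minus supernatant A (vertical axis) against input B minus input A (horizontal axis) for the one-peak genes in grey, the 10 genes and 3 measured genes that respond to transforming growth factor beta. CAV2, TGFBI and CAV1 lie high on both axes together with CTGF and CYR61, and the other 7 of the 10 lie nearer the centre. COL1A1, the remaining responsive gene, lies near the centre too, at 0.03 in the supernatants and -0.11 in the inputs. 13 grey points fall outside the axes.

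Each gene was set beside the gene with the most similar 4 values, by Euclidean distance over log2 intensities, which reflects level and pattern together. The nearest were NACA to VIM at 0.113, TCEB2 to LGALS1 at 0.0611, ATOX1 to CAV1 at 0.0919, DDB1 to CAV2 at 0.186, DTYMK to ANXA1 at 0.0619, MRPS27 to ANXA3 at 0.0717, TINF2 to CD44 at 0.0536, HSPB7 to TGFBI at 0.100, DAZAP2 to TIMP3 at 0.0937 and TMEM50A to HOXC6 at 0.0605. None of the 10 was nearest to another of the 10. CAV2 had the most distant neighbour.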

How the data were processed

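Poly(A)-selected RNA of HepG2 cells, before (input) and after (supernatant) depletion with an m1A antibody, was measured on Affymetrix arrays, 2 samples a group, per the labels. The submitters' processing notes name RMA. The gene table holds deposited intensities on a linear scale in 4 lettered columns, per the file headers; their making is not stated in the sources used here. The deposited ratio averages both supernatant/input ratios and, for one-peak genes, divides them by 1.29. The deposited fraction is 1 minus that ratio, as recomputation showed. Another deposited table gives log2 values for 49395 unnamed probe sets. No single probe set had the 4 values of any of the 10 genes within 1%, so this second table was not used further. A gene value averaged over several probe sets may not be found by such a search.

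Log2 intensities of all 6434 genes entered an unpaired lmFit and eBayes fit (limma 3.58.1, R 4.3.3) without filter or offset, with Benjamini-Hochberg adjustment and a threshold of 0.05. The code was tested on simulated data. Python 3.11.15, NumPy 2.4.6, pandas 2.3.3 and matplotlib 3.10.9 made tables and figures. Median intensity of one-peak genes was 222 in both supernatants and 216 in both inputs. With medians this alike, a loss shared by most transcripts may not show. The number of arrays limits the precision. The 10 genes and all lists were chosen with earlier results of these data known. All 10 genes are described, and per list the 3 brightest measured others. A gene of the hepatocyte list is not reported here by name. List members were matched through current symbols of RefSeq (GRCh38.p14). Alternatives covered pairing, offsets, filters, the prior, normalization and each column left out.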

Additional observations from a re-analysis of the deposited data

How the results depend on the processing

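None of the 10 genes passed under any of the 14 alternatives to the limma fit, where the lowest adjusted p of any of them was 0.598, without input A, where 35 of all genes passed (12 without input B and 1 in the fit of all columns). Of 140 recomputed log2 changes, 126 kept their sign and 14 turned. The replicate block, the intensity filters, the trended prior and the one-peak block alone leave each estimate unchanged, so no sign could turn there. The groups share replicate numbers and letters, but no label ties a letter or number to a shared preparation. The correlation of deviations between columns of 1 letter was 0.451 over all genes and 0.716 over one-peak genes. With the letter as a replicate block, 0 of the 10 genes passed and 2, ANXA3 and TIMP3, had an unadjusted p under 0.05, as did 5.70% of all genes (367, against 130 without the block), while 1 of all genes passed, as without the block. The sign of HOXC6 turned to -0.00045 with quantile normalization, -0.0615 after recentring on the medians of genes without a peak and -0.0449 after centring on all genes. The median change of the 10 was 0.0761, and moved to 0.0091 and 0.0257 under the 2 centrings and to between -0.00218 (without supernatant B) and 0.141 (without supernatant A) with 1 column left out. Leaving out 1 column gave ranges of -0.106 to 0.061 for VIM, -0.142 to 0.0275 for LGALS1, -0.222 to 0.13 for CAV1, -0.0822 to 0.441 for CAV2, -0.168 to 0.327 for TGFBI and -0.0525 to 0.0635 for HOXC6, while the other 4 kept their sign. In these fits the lone sample of a group is assumed to vary like the other group. The median fraction of the 10 was 0.183 as recomputed with the divisor 1.29, -0.0555 without a divisor, -0.00392 with the mean ratio of bright genes without a peak, and -0.0542 from group means of log2 values. The planned test in the probe set table was not run, because no table used here names its probe sets.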
